A study of Rattus norvegicus with 18 samples.

Results

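The smooth muscle contractile genes examined here were the 10 genes named Myh11, Acta2, Cnn1, Tagln, Smtn, Actg2, Lmod1, Mylk, Myocd and Cald1 in a table of 32883 rat genes, and each was matched once. Their levels were read in 18 RNA sequencing libraries from hearts of healthy male Sprague Dawley rats without any treatment or transgene. The libraries came from the superior sinoatrial node (sSAN), the inferior sinoatrial node (iSAN), the left atrium (LA) and the right atrium (RA) of 4 rats, and from the left ventricle (LV) of 2 of them. Rats 1 and 2 had an age of 59 days, and rats 3 and 4, which gave the LV, of 70 days. Age cannot be told apart from any other difference between rats 1 and 2 and rats 3 and 4, such as a collection day, if that differed. The node pieces were cut by hand at sites known from functional work on other hearts, so a piece can hold node cells, working muscle, vessels, nerve and fat.

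Smooth muscle contracts when calcium and calmodulin activate the kinase Mylk, which phosphorylates the light chain of the myosin built on the heavy chain Myh11, so that it pulls on filaments of the actins Acta2 and Actg2. Tagln, Cnn1, Cald1 and Smtn bind these filaments, Lmod1 starts new ones, and Myocd, a coactivator of serum response factor (SRF), switches on many of the genes through a DNA element called the CArG box. In a healthy heart the mature program marks the walls of arteries and veins, while Myocd is also at work in heart muscle cells.

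RefSeq held a promoter, 250 bases before to 50 bases after the start of transcription on build GRCr8, for 6 of the 10 genes. Myh11, Tagln, Lmod1 and Myocd had none and were not searched. 3 of them are shown, Acta2 and Actg2 as 2 actins that were high together in the nodes and Smtn as a filament protein that was not. None of the windows of these 6 genes held the strict CArG box, which is CC, then 6 bases of A or T, then GG, read on either strand. Sequence outside the windows was not searched. The strict box was present in 1.64% of 33469 rat promoters. With 1 of the middle bases allowed to be G or C, a choice made after seeing the data, Acta2 alone held it, at 134 to 125 and at 84 to 75 bases before the start. Such a box was in 8.1% of all promoters. CATTCC, the core site of TEAD factors, was found on either strand in the windows of Acta2 and Mylk and in 1 of the 2 windows of Cald1. It was in 14.2% of all promoters. Capitals mark the 2 relaxed boxes of Acta2, and the letters are a description of these windows only.
Acta2 (chr1:241172454-241172753, minus strand): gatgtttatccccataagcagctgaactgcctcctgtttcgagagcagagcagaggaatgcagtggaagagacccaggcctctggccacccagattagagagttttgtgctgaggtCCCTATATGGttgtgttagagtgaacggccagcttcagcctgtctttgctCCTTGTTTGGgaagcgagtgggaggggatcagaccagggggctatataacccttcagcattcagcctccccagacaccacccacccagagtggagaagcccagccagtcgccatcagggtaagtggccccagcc
Actg2 (chr4:117593990-117594289, minus strand): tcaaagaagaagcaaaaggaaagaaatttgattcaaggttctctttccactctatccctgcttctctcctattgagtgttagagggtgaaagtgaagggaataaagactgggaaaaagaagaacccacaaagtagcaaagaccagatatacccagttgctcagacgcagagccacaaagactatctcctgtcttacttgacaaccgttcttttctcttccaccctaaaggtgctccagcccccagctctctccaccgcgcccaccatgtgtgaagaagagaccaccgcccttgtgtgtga
Smtn (chr14:82644465-82644764, minus strand): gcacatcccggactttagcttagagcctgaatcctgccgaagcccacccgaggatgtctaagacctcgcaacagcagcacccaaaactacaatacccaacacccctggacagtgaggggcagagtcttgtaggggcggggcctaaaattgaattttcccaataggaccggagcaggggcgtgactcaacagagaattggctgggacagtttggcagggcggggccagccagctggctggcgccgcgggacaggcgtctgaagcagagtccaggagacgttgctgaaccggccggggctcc

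Library totals were 17334954 to 24252103 counts. Mitochondrial transcripts took 24.1% to 40.8% of the counts of sSAN libraries, 19.1% to 28.0% of iSAN, 35.0% to 35.4% of LV, 18.6% to 20.5% of LA and 16.4% to 18.8% of RA libraries. Levels are given as CPM, the counts of a gene as a share of its library after TMM scaling, which sets the libraries so that most genes do not differ. Ventricular markers summed to 9395 to 12138 CPM in the LV and to at most 34.8 CPM elsewhere, as the labels imply. Markers of fat cells, 5 genes in all, summed to 620 to 4022 CPM for the sSAN, 68.3 to 2213 CPM for the iSAN and at most 9.87 CPM in any chamber library.

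The 10 genes did not share a single pattern. Tagln, Acta2, Myh11, Actg2 and Cnn1 were highest in both nodes and low in both atria, Mylk, Cald1 and Lmod1 were raised in the nodes with patterns of their own, and Smtn and Myocd were lowest in the nodes. Genes were called at an adjusted p under 0.05 in edgeR's quasi-likelihood test over all genes measured. Against the RA, 8 members were higher and 1 was lower in the sSAN, where 22.2% of 14038 genes were called, 13.8% higher and 8.48% lower. In the iSAN 7 were higher and 0 lower (2 lower, Smtn and Myocd, with rat as a block), against a background of 16.6% called, 10.4% higher and 6.16% lower. The median log2 fold change of the 10 genes was 2.30 for sSAN over RA and 1.75 for iSAN over RA, and that of all genes tested was 0.02 and 0.01. In whole tissue, more smooth muscle cells and more RNA in each cell cannot be told apart.

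**Figure D1:**
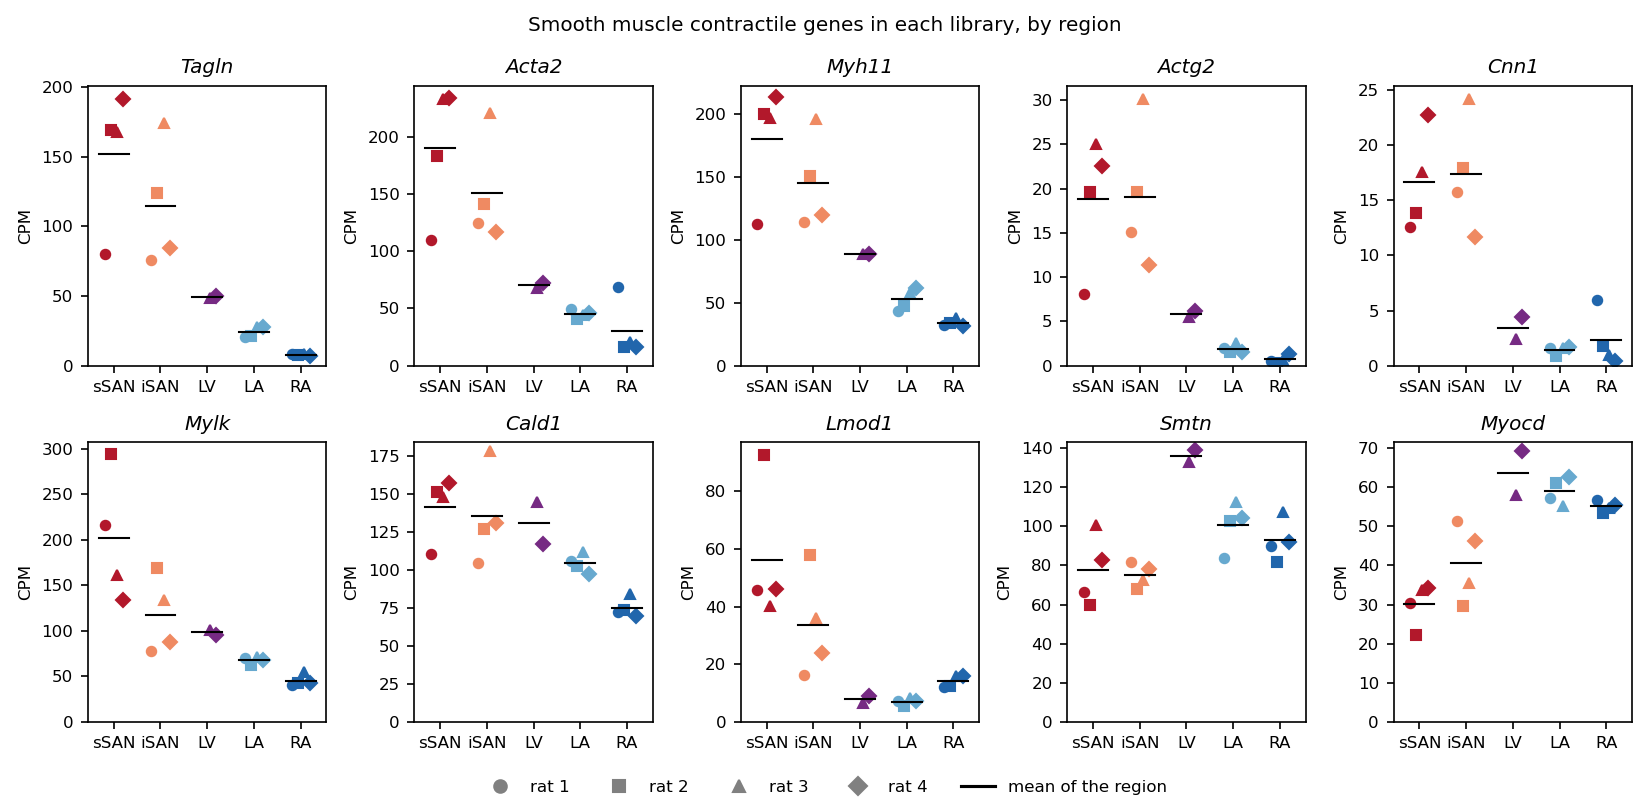
CPM of the 10 genes in each of the 18 libraries, with regions on the horizontal axis, a symbol for each rat and a black line at the mean. The 8 node libraries lay above every RA library for Tagln, Acta2, Myh11, Actg2, Cnn1, Mylk, Cald1 and Lmod1, and Smtn and Myocd had their highest mean in the LV. For Lmod1 the lowest node library was at 16.3 CPM and the highest RA library at 16.1 CPM. How many of all genes were separated in this way was not counted.

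The filament protein Tagln, also called SM22, separated the regions most evenly. Its level was 79.8, 169, 168 and 191 CPM in the sSAN of rats 1 to 4, 75.7, 124, 174 and 84.4 CPM in the iSAN, 48.4 and 49.9 CPM in the LV of rats 3 and 4, 20.7, 21.0, 28.1 and 28.0 CPM in the LA, and 8.13, 7.99, 8.22 and 7.01 CPM in the RA. Apart from the 2 nodes, whose ranges overlapped, no 2 regions overlapped. The log2 fold change over the RA was 3.89 ± 0.29 in the iSAN, 2.63 ± 0.10 in the LV and 1.63 ± 0.12 in the LA (SE, edgeR adjusted p = 0.000281, 3.07e-08 and 8.27e-06). Tagln overlaps Sidt2 on the same strand, and how reads in the overlap were handled is not given in the sources used here.

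Myh11, the motor of the filament, followed the same order over a smaller span. It was at 112, 199.8, 197 and 213 CPM in sSAN pieces, 114, 150.5, 196 and 119 CPM in iSAN pieces, 88.5 and 88.4 CPM in LV pieces, 43.5, 47.8, 57.4 and 61.8 CPM in LA pieces, and 32.6, 33.7, 38.2 and 31.5 CPM in RA pieces. Every node library was above both LV libraries, both of those were above every LA library, and every LA library was above every RA library. The sSAN was 5.35 times the RA (log2 fold change 2.42 ± 0.19, edgeR adjusted p = 0.000309), the LV was 2.56 times the RA (1.36 ± 0.09, adjusted p = 7.38e-07), and the LA was 1.54 times the RA (0.62 ± 0.11, adjusted p = 0.00453).

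Actg2, the enteric smooth muscle actin, had the highest fold changes over the RA of the 10 genes in the nodes and the LV, from a low base. It was at 8.10, 19.6, 25.0 and 22.6 CPM in sSAN pieces, 15.1, 19.7, 30.1 and 11.4 CPM in iSAN pieces, 5.54 and 6.16 CPM in LV pieces, 1.97, 1.55, 2.57 and 1.60 CPM in LA pieces, and 0.478, 0.337, 0.673 and 1.33 CPM in RA pieces, where 7 to 28 reads were counted. The nodes were 26.7 times (sSAN) and 27.2 times (iSAN) the RA, with log2 fold changes of 4.74 ± 0.48 and 4.77 ± 0.46 (edgeR adjusted p = 0.000926 and 0.000601). The LA was also above the RA in 4 of 4 rats (1.43 ± 0.38, adjusted p = 0.0367), but the call was lost without any 1 of the 4 LA libraries or the RA of rat 1, 2 or 3 (adjusted p = 0.0529 to 0.109).

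Acta2, the vascular smooth muscle actin, was the member for which 1 library decided most. It was at 109.8, 183, 233 and 234 CPM in sSAN pieces, 125, 141, 221 and 117 CPM in iSAN pieces, 68.0 and 72.5 CPM in LV pieces, 49.6, 41.0, 43.9 and 45.9 CPM in LA pieces, and 68.7, 16.4, 20.5 and 16.2 CPM in RA pieces. The RA of rat 1 lay above every LA library and within the LV range, while the other 3 RA libraries were below every other library. The nodes were higher than the RA in 4 of 4 rats, by 2.66 ± 0.52 (sSAN) and 2.33 ± 0.56 (iSAN) on the log2 scale (edgeR adjusted p = 0.00998 and 0.0347). From the 59-day rats alone both calls were lost (adjusted p = 0.290 and 0.521). The iSAN call was also lost with rat as a block (adjusted p = 0.0691), with no filter on low counts (0.0590) and without the iSAN or the RA of rat 2, 3 or 4 (0.0586 to 0.0919). Without the RA of rat 1 the LV (adjusted p = 3.04e-06) and the LA (3.69e-05) were higher as well, where with it they were not called (0.278 and 0.638). The LV was also called with rat as a block (edgeR adjusted p = 1.40e-05). That fit keeps only rats 3 and 4, so it leaves out the RA of rat 1 too. Acta2 and Actg2 belong to a family of closely related actins that includes the cardiac ones, and how reads shared between them were counted was not tested.

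Cnn1, calponin, a filament protein of mature smooth muscle, was at most 5.98 CPM in every chamber library and at least 11.7 CPM in every node library. It was at 12.5, 13.8, 17.6 and 22.8 CPM in sSAN pieces, 15.8, 17.96, 24.2 and 11.7 CPM in iSAN pieces, 2.46 and 4.44 CPM in LV pieces, 1.60, 0.899, 1.58 and 1.74 CPM in LA pieces, and 5.98, 1.83, 0.961 and 0.426 CPM in RA pieces. The RA spread over more than the whole LA range, again with rat 1 highest. Over the RA the log2 fold change was 2.87 ± 0.65 in the sSAN (edgeR adjusted p = 0.0166, and 0.0517 without the RA of rat 2) and 2.94 ± 0.71 in the iSAN (0.0330). From the 59-day rats alone both calls were lost (adjusted p = 0.0926 and 0.283), and the change of the sSAN to RA difference with age was 3.09 on the log2 scale, 70-day minus 59-day (edgeR adjusted p = 0.131). The iSAN call was also lost with rat as a block (adjusted p = 0.0571), with no filter (0.0596) and without the iSAN of rat 2, 3 or 4 or the RA of rat 2 or 3 (0.0549 to 0.0833). Against the LA, the sSAN was 11.6 times higher (log2 fold change 3.54 ± 0.26, edgeR adjusted p = 0.000280) and the iSAN 12.2 times higher (3.61 ± 0.27, adjusted p = 6.51e-05), the widest gaps to the LA among the 10 genes.

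Mylk, the kinase that starts contraction, was high in both nodes and varied widely there. Its level was 216, 294, 161 and 134 CPM in sSAN pieces, 77.3, 169, 134 and 87.2 CPM in iSAN pieces, 101 and 95.7 CPM in LV pieces, 69.8, 62.3, 71.2 and 68.2 CPM in LA pieces, and 40.5, 42.5, 54.7 and 42.6 CPM in RA pieces. In the sSAN both 59-day rats were above both 70-day rats, but the change of the sSAN to RA difference with age was not past the threshold (-1.03 on the log2 scale, 70-day minus 59-day, edgeR adjusted p = 0.0764). Mylk was called over the RA in the sSAN (2.18 ± 0.24, adjusted p = 0.00110), iSAN (1.39 ± 0.25, adjusted p = 0.00928), LV (1.11 ± 0.11, adjusted p = 2.44e-05) and LA (0.58 ± 0.09, adjusted p = 0.00154).

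Lmod1, leiomodin, which seeds actin filaments in smooth muscle, was the only member lower in both the LA and the LV than in the RA. It was at 45.7, 92.7, 40.2 and 46.0 CPM in sSAN pieces, 16.3, 58.0, 36.0 and 24.0 CPM in iSAN pieces, 6.56 and 9.04 CPM in LV pieces, 7.26, 5.47, 8.26 and 7.24 CPM in LA pieces, and 12.3, 12.3, 16.0 and 16.1 CPM in RA pieces. The RA range lay above that of the LA and the LV and below that of the nodes. The LA differed from the RA by -1.02 ± 0.14 on the log2 scale (edgeR adjusted p = 0.000831) and the LV by -0.89 ± 0.18 (adjusted p = 0.00251). The sSAN was 4.002 times the RA (2.001 ± 0.27, adjusted p = 0.00238), while the iSAN, higher in 4 of 4 rats, was not called (1.26 ± 0.38, adjusted p = 0.0627), and it was without the iSAN of rat 1 (adjusted p = 0.0114), with all 5 regions in the fit (0.0195) and in DESeq2 (0.000638). Fitted with all 5 regions, neither the LA nor the LV was called lower (adjusted p = 0.146 and 0.143).

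Cald1, caldesmon, which many cell types also make in a non-muscle form, differed least among the raised genes. Its range was 110.2 to 158 CPM in sSAN pieces, 105 to 179 CPM in iSAN pieces, 117 to 145 CPM in LV pieces, 97.4 to 112 CPM in LA pieces and 69.6 to 84.1 CPM in RA pieces. The RA was the region that stood apart, below every library of the other 4 regions. The log2 fold change over the RA was 0.94 ± 0.12 (sSAN), 0.87 ± 0.15 (iSAN), 0.79 ± 0.10 (LV) and 0.47 ± 0.07 (LA), each called by edgeR (adjusted p = 0.00184, 0.00431, 0.000126 and 0.00110).

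**Figure D2:**
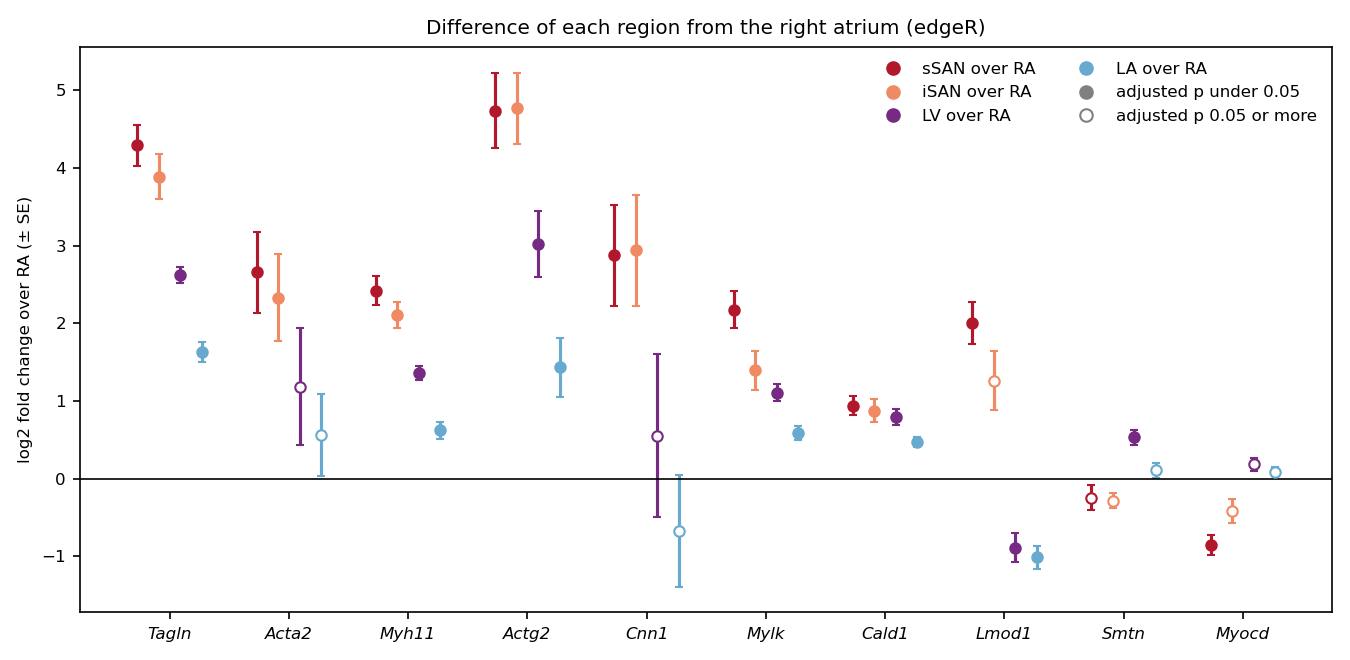
Log2 fold change of each gene over the RA with its standard error, for the sSAN, iSAN, LV and LA, with filled points where edgeR's adjusted p was under 0.05. Tagln, Myh11, Actg2, Mylk and Cald1 were called in all 4 comparisons, and Lmod1 lay above 0 in the nodes and below 0 in the LV and LA.

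Myocd and Smtn ran the other way. Myocd, the coactivator of the program, was at 30.3, 22.1, 33.9 and 34.3 CPM in sSAN pieces, 51.4, 29.7, 35.5 and 46.2 CPM in iSAN pieces, 58.0 and 69.2 CPM in LV pieces, 57.3, 61.2, 55.3 and 62.5 CPM in LA pieces, and 56.8, 53.5, 54.7 and 55.6 CPM in RA pieces. Every node library was below every chamber library. The sSAN was 0.516 times the LA (log2 fold change -0.95 ± 0.13, edgeR adjusted p = 0.00223) and 0.474 times the LV (-1.08 ± 0.19, adjusted p = 0.00835, and 0.106 without the LV of rat 4). For the iSAN the difference from the RA was -0.42 ± 0.15 and was not called (adjusted p = 0.0920), though it was negative in 4 of 4 rats. It was called with rat as a block (adjusted p = 0.0384), in DESeq2 (0.0436) and without the iSAN of rat 1 (0.0181).

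Smtn, smoothelin, which binds actin in contractile smooth muscle, was at 66.6, 59.8, 100.5 and 82.9 CPM in sSAN pieces, 81.6, 67.9, 72.5 and 78.4 CPM in iSAN pieces, 133 and 139 CPM in LV pieces, 83.9, 103, 112 and 104 CPM in LA pieces, and 90.2, 81.7, 107 and 92.2 CPM in RA pieces. The LV was above every other library. Smtn was lower in the iSAN than in the LA (-0.40 ± 0.10, edgeR adjusted p = 0.0209, and 0.0559 to 0.0603 without the iSAN of rat 3 or the LA of rat 2, 3 or 4). It was also lower than in the LV for the sSAN (-0.81 ± 0.21, adjusted p = 0.0286, and 0.0737 to 0.195 without the sSAN of rat 1 or either LV library) and the iSAN (-0.86 ± 0.10, adjusted p = 0.000599). Its sSAN to RA difference was -0.25 ± 0.16 (adjusted p = 0.303), with the node lower in 4 of 4 rats and overlapping ranges.

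Between the 2 nodes 0 of the 10 genes were called in either direction by edgeR, where 0.00699% of 14301 genes (1 gene, lower) were, and DESeq2 called 0 members too. At an unadjusted p under 0.05 there was 1 member, Mylk. The median log2 fold change of the sSAN over the iSAN was 0.19, with standard errors of 0.16 to 0.42 among the members. Lmod1 (0.74 ± 0.42) and Mylk (0.79 ± 0.31) were higher and Myocd (-0.43 ± 0.20) was lower in the sSAN in 4 of 4 rats, with overlapping ranges.

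Set against the LA, the sSAN had 8 members higher (11.8% of 14112 genes were called higher) and 1 lower (8.41%), and the iSAN had 7 higher (10.4% of 14201) and 2 lower (6.72%), with 20.2% and 17.1% called either way. Some of these calls were close to the threshold. In the iSAN, Mylk (higher) and Myocd (lower) lost theirs without any 1 of the 4 LA libraries (edgeR adjusted p = 0.0835 to 0.119), and Cald1 in the sSAN lost its call without the LA of rat 1, 2 or 4 (0.0636 to 0.0726). The LA itself differed from the RA in 5 members that were higher and 1 that was lower, where 8.64% of 13904 genes were called, 4.37% higher and 4.26% lower. The 5 were Tagln, Actg2, Myh11, Mylk and Cald1, and each was higher in the LA in 4 of 4 rats. Fitted in 1 model with all 5 regions, which share 1 estimate of the spread, only 1 member was called higher and 0 lower in the LA. How many of all genes that fit called was not counted.

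In 7 of the 10 genes the mean level of the LV stood between those of the nodes and the atria, the others being Smtn, Myocd and Lmod1. The LV had 6 members higher and 1 lower than the RA (46.2% of 14166 genes called, 23.5% higher and 22.7% lower), and 8 higher and 0 lower than the LA (43.2% of 14274 called, 22.1% higher and 21.1% lower). Of those 8, the fit of all 5 regions called 4, and on deposited FPKM the log2 ratio of LV over LA means was below 0 for Smtn (-0.12), Mylk (-0.0095) and Cald1 (-0.22). With only 2 rats the nodes still differed from the LV. The sSAN had 6 higher and 2 lower (22.7% of 14480 called, 10.8% higher and 11.9% lower). The iSAN had 6 higher and 1 lower (39.1% of 14497, 18.8% higher and 20.3% lower). The 6 higher were Myh11, Acta2, Cnn1, Tagln, Actg2 and Lmod1 for both nodes. With rat as a block, a fit of rats 3 and 4 only, the iSAN had 3 higher and 2 lower. The counts without a block rest on both LV libraries. Without either of them, fewer members were called higher in each node, and the LV was left with 1 library. How many of all genes such a fit called was not counted.

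On the per-length scale of the deposited FPKM, which divides fragments by gene length and library size, the genes could be ranked within a region. Tagln led in the sSAN with 138.8 ± 48.9 FPKM and in the iSAN with 121.8 ± 51.8 FPKM, Acta2 led in the LV with 36.5 ± 0.101 FPKM and in the LA with 34.3 ± 2.53 FPKM, and Smtn led in the RA with 30.1 ± 2.66 FPKM (SD, n = 4, LV n = 2). Tagln and Acta2 together made most of the summed FPKM of the 10 genes in the nodes. Tagln held 32.5% ± 3.69 of the sum for the sSAN, 30.2% ± 3.59 for the iSAN, 21.1% ± 0.257 for the LV, 15.7% ± 1.81 for the LA and 7.17% ± 1.06 for the RA. Smtn showed the reverse order, at 5.47% ± 1.44 for the sSAN, 6.76% ± 2.11 for the iSAN, 18.3% ± 0.398 for the LV, 20.3% ± 1.87 for the LA and 26.6% ± 4.53 for the RA. The make-up of the transcripts therefore differed between regions along with their level. FPKM carry no TMM scaling, and on that scale the mean of Smtn was not higher in the LV than in the RA or the LA.

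**Figure D3:**
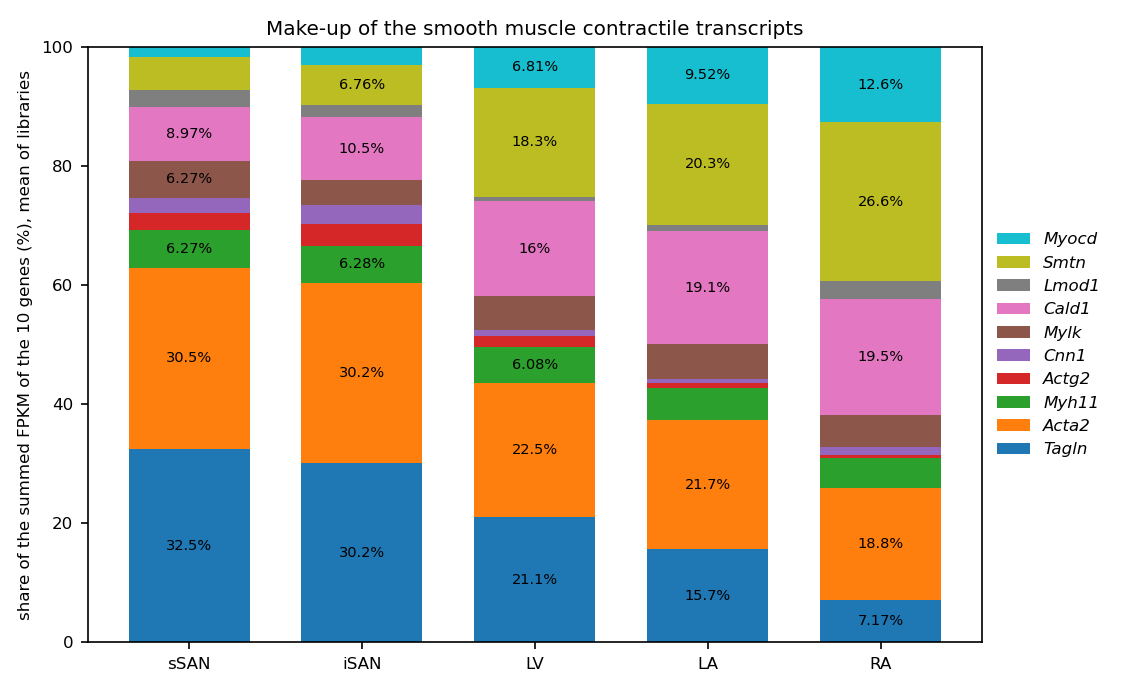
Share of each gene in the summed FPKM of the 10 genes, as the mean over the libraries of each region, in stacked bars that add to 100%. Tagln and Acta2 filled 32.5% and 30.5% of the bar in the sSAN, and Smtn and Myocd filled 26.6% and 12.6% in the RA.

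Over the 18 libraries the log2 CPM of Myh11 correlated at 0.99 with Tagln, 0.97 with Actg2, 0.93 with Acta2, 0.91 with Cald1, 0.88 with Mylk, 0.87 with Cnn1 and 0.73 with Lmod1. With Smtn the correlation was -0.39 and with Myocd it was -0.75. Lmod1 and Myocd were the most opposed pair, at -0.95. The libraries share regions and rats, so these values describe the pattern and carry no test. Among genes outside the 10, those most like Myh11 were Atp2a3, RGD1564664, Flna, Tbx3, Lrat, Mustn1, Tspan11, Mt2A, Vwa1 and AABR07005821.1, with correlations of 0.93 to 0.96.

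**Figure D4:**
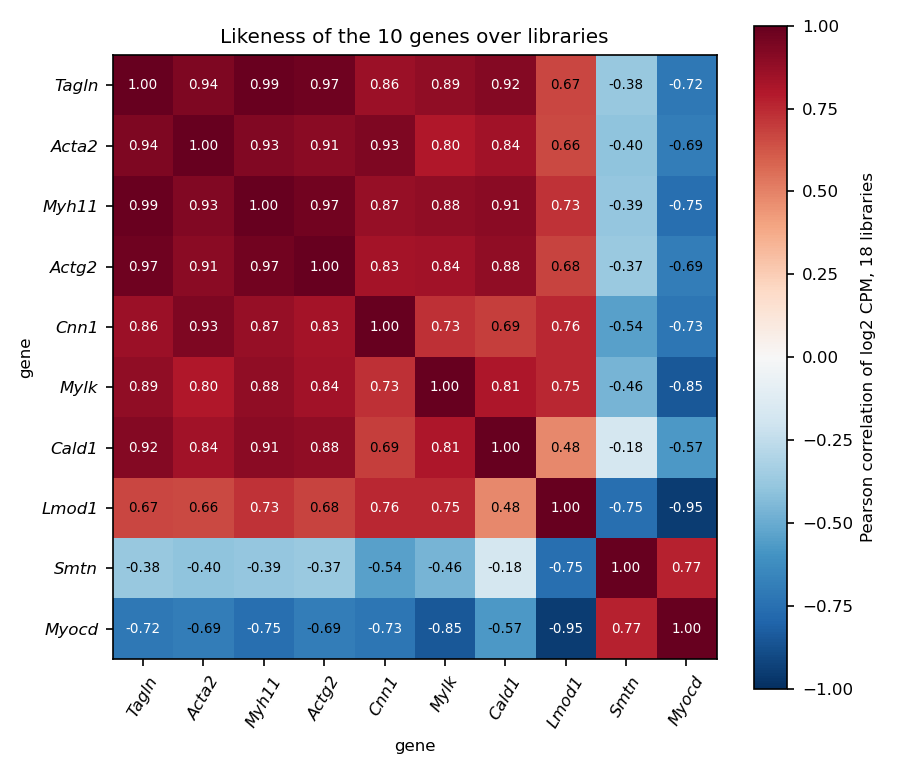
Pearson correlation of log2 CPM over the 18 libraries for each pair of the 10 genes, in colour and as a number. Tagln, Acta2, Myh11, Actg2 and Cnn1 form a block of 0.83 to 0.99, and Myocd is negative with every gene but Smtn.

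Markers of other cells moved along with some of these differences. Of 5 fat cell markers, all 5 were higher in each node than in the RA. Of all genes, 13.8% were higher for the sSAN and 10.4% for the iSAN. In the nodes the library with most fat markers, the sSAN of rat 2 (4022 CPM), was also the highest in Lmod1 and Mylk, and the node library with the least, the iSAN of rat 1 (68.3 CPM), was the lowest in both. Between these, Lmod1 was at 40.2 to 46.0 CPM in the other 3 sSAN libraries, whose fat markers summed to 620 to 2857 CPM. Tagln was also lowest of the node libraries in the iSAN of rat 1 (75.7 CPM), next lowest in the sSAN of rat 1 (79.8 CPM, with 2857 CPM of fat markers) and highest in the sSAN of rat 4 (191 CPM, with 620 CPM). The sum of 7 working heart muscle markers was 19796 to 49480 CPM in sSAN pieces, 36367 to 54436 CPM in iSAN pieces, 53332 to 60176 CPM in LV pieces, 65850 to 78363 CPM in LA pieces and 71840 to 80452 CPM in RA pieces, and Myocd was lowest in the sSAN of rat 2, which had the least of them. Of these 7, edgeR called 0 higher and 2 lower for the sSAN over the RA, where 8.48% of all genes were lower. For the iSAN over the RA it called 0 higher and 4 lower, where 6.16% of all genes were lower. For the LV over the RA it called 4 higher and 2 lower, where 23.5% and 22.7% of all genes were. The 2 lower were Nppa (423 CPM in the LV, 33928 CPM in the RA) and Myl4 (7.83 and 6293 CPM). Among the 4 higher was Actc1 (15904 and 5983 CPM). The sums therefore do not compare the amount of heart muscle between the LV and the atria. Myocd had its highest mean in the LV (63.6 CPM). The part of fat and of heart muscle in the results for the 10 genes was not tested.

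**Figure D5:**
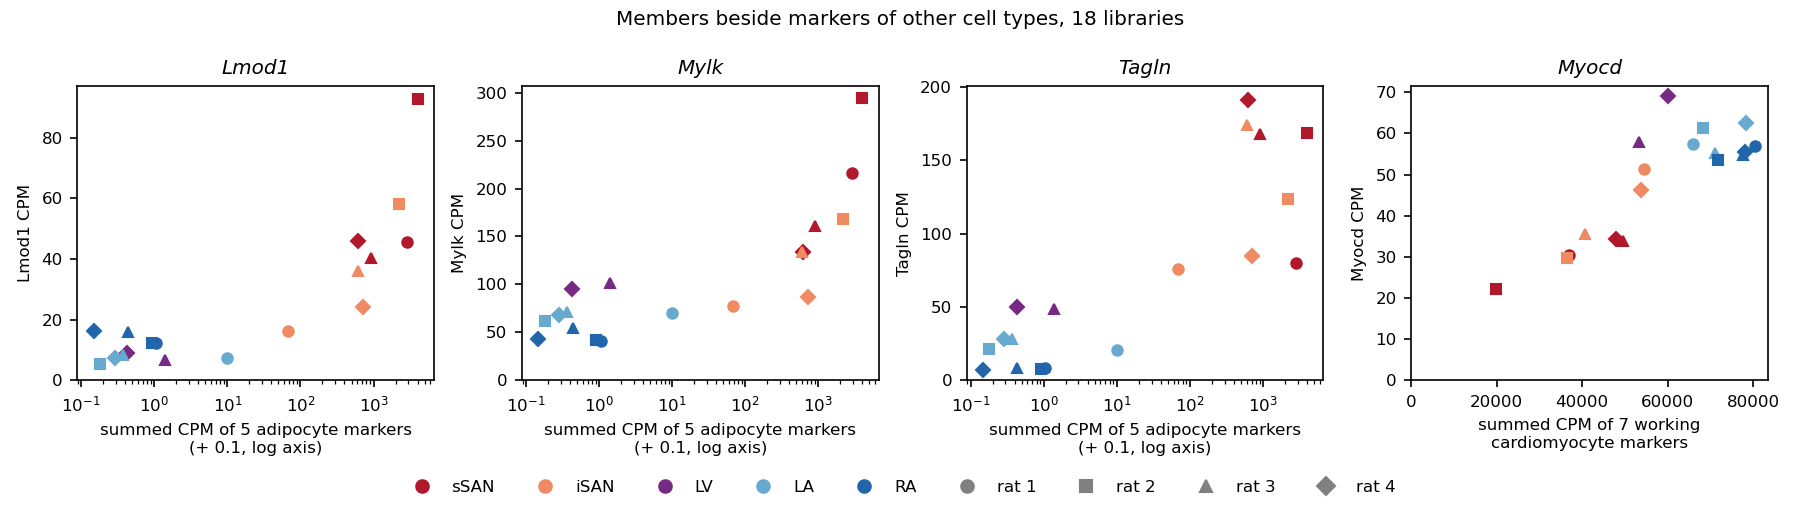
CPM of Lmod1, Mylk and Tagln against the summed CPM of 5 fat cell markers (log axis), and of Myocd against the sum of 7 working heart muscle markers, for the 18 libraries. Lmod1 reached 92.7 CPM and Mylk 294 CPM in the library with most fat markers, and Myocd was 22.1 CPM in the library with the least heart muscle markers.

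Pericytes, the mural cells of capillaries, share some genes with smooth muscle. The median log2 fold change of 10 pericyte markers over the RA was 0.69 for the sSAN, 0.52 for the iSAN, 1.38 for the LV and 0.38 for the LA, above 0 in each as for the 10 genes. Their sum, in which Abcc9 had the largest share (436 CPM in the RA), was 594 to 639 CPM in sSAN pieces, 611 to 706 CPM in iSAN pieces, 893 to 1129 CPM in LV pieces, 560 to 654 CPM in LA pieces and 621 to 769 CPM in RA pieces. It was highest in the LV, whereas the summed level of the 10 contractile genes was highest in the nodes, at 791 to 1206 CPM for the sSAN and 677 to 1102 CPM for the iSAN, against 652 to 657 CPM for the LV, 442 to 493 CPM for the LA and 324 to 388 CPM for the RA. Against the RA, edgeR called 6 pericyte markers higher and 1 lower for the sSAN, 2 higher and 1 lower for the iSAN and 9 higher and 0 lower for the LV. Of all genes, 13.8% were higher and 8.48% lower for the sSAN, 10.4% and 6.16% for the iSAN, and 23.5% and 22.7% for the LV. The 1 lower for the sSAN was Abcc9 (-0.82 ± 0.15, adjusted p = 0.00641), so the sum can hide a rise of other markers. Against the LV, 0 were higher and 7 lower in each node, where 11.9% of all genes were lower for the sSAN and 20.3% for the iSAN. Fibroblast markers, 7 genes, summed to 5440 to 8331 CPM for the sSAN and 7364 to 10110 CPM for the iSAN, above the 3270 to 4256 CPM of the RA, and the part of this in the contractile genes was not tested.

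Other genes of the contractile pathway were read in lists by role. Of all genes tested, 13.8% were higher and 8.48% lower for the sSAN over the RA, and 10.4% and 6.16% for the iSAN. Of 16 further filament and dense body genes, 4 were higher and 2 lower in each node than in the RA. Flna, which crosslinks actin, was the third closest gene to Myh11 and was higher in the sSAN (0.86 ± 0.11, edgeR adjusted p = 0.00155) and the iSAN (0.76 ± 0.12, adjusted p = 0.00247). The most abundant of the 16 are shared with heart muscle, and of these Vcl, vinculin, was lower in the sSAN (-0.63 ± 0.11, adjusted p = 0.00539) and the iSAN (-0.47 ± 0.10, adjusted p = 0.0133), while Tpm1, Des and Myl6 were not called in either node (adjusted p = 0.129, 0.250 and 0.717 for the sSAN over the RA, and 0.0861, 0.450 and 0.949 for the iSAN over the RA). The other genes called in both nodes, named after their values were seen, were Csrp1 (0.76 ± 0.13 for the sSAN, 0.63 ± 0.10 for the iSAN), Cnn3 (0.64 ± 0.10 and 0.61 ± 0.10) and Actn1 (0.36 ± 0.11 and 0.60 ± 0.14), all higher. Myl9, the light chain that Mylk acts on in smooth muscle, was at 212 CPM in the sSAN, 217 CPM in the iSAN and 312 CPM in the RA and was not called (adjusted p = 0.115 and 0.123).

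In the arm that relaxes or sensitizes the filament, the sSAN had 2 of 11 genes higher than the RA and 2 lower, and the iSAN had 1 higher and 0 lower, counts near the share of all genes called. Those higher in the sSAN were Ppp1r14a (1.02 ± 0.25, adjusted p = 0.0179), which inhibits myosin phosphatase, and Pde5a (0.97 ± 0.21, adjusted p = 0.0117), which breaks down cyclic GMP, both named after their values were seen. Ppp1r12b, a targeting subunit of myosin phosphatase, was at 220.03 CPM in the sSAN and 306.7 CPM in the RA (-0.46 ± 0.11, edgeR adjusted p = 0.0200). Ppp1cb, its catalytic partner, was not called in either node (adjusted p = 0.124 in the sSAN). Of 9 transcription regulators, the sSAN had 3 higher and 3 lower than the RA, and the iSAN had 3 higher and 0 lower. Srf, the DNA-binding partner of Myocd, was at 99.7 CPM in the sSAN and 149 CPM in the RA (-0.56 ± 0.16, adjusted p = 0.0344), and Gata6 was at 51.2 CPM in the sSAN and 80.7 CPM in the RA (-0.64 ± 0.18, adjusted p = 0.0342). Foxo4 and Elk1 were not called in either node (adjusted p = 0.492 and 0.284 in the sSAN). The 3 that were higher in the sSAN, named after their values were seen, were Notch3 (0.99 ± 0.12), Klf4 (0.87 ± 0.25) and Prrx1 (1.38 ± 0.21).

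Receptors, channels and integrins of smooth muscle were called most often, 7 of 14 higher and 5 lower for the sSAN, and 6 higher and 1 lower for the iSAN, all over the RA. Of the 4 most abundant, 3 were lower in the sSAN. Ednra, the endothelin receptor of vascular smooth muscle, was at 75.0 CPM in the sSAN and 139 CPM in the RA (-0.87 ± 0.18, edgeR adjusted p = 0.0104), and Cacna1h, a T-type calcium channel, was at 25.9 CPM in the sSAN and 60.3 CPM in the RA (-1.20 ± 0.36, adjusted p = 0.0473). Itga5, an integrin chain, was lower in the sSAN (-0.49 ± 0.12, adjusted p = 0.0186), and Itpr1, a calcium release channel, was not called (0.14 ± 0.20, adjusted p = 0.655). The 7 that were higher in the sSAN, named after their values were seen, were of low level. Itga8, an integrin chain of mesenchymal cells, averaged 16.2 CPM in the sSAN, 20.4 CPM in the iSAN and 3.59 CPM in the RA, and Agtr1a, the angiotensin receptor, averaged 14.2 CPM in the sSAN, 12.7 CPM in the iSAN and 3.23 CPM in the RA. The other 5, Adra1d, Ptger3, Tbxa2r, Kcnmb1 and P2rx1, averaged 2.17 to 10.9 CPM in the sSAN and 0.252 to 1.68 CPM in the RA. Relative to the RA, then, the sSAN was lower in the endothelin receptors Ednra and Ednrb. It was higher in the receptors Agtr1a, Adra1d, Ptger3, Tbxa2r and P2rx1. Over the RA, the iSAN was called higher in Agtr1a, Ptger3 and P2rx1. Ednra, Ednrb, Adra1d and Tbxa2r were not called there (edgeR adjusted p = 0.0616, 0.327, 0.105 and 0.157). Adra1d averaged 20.7 CPM in the LV, above the sSAN.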

How the data were processed

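Rat RNA was extracted from pieces stored in RNAlater, and libraries were read on an Illumina platform with paired reads. Per the labels and the study's methods, the authors aligned reads to Rattus norvegicus release 98 with HISAT2 and made the raw count of each gene with HTSeq 0.6.1 before deposition, without scaling. Whether the counting used strand is not given in the sources used here. FPKM, a level per length, was also calculated by the authors and enters here unchanged from the deposited table. The table's columns of fold changes and p-values of the authors' own comparisons, made with DESeq2, and 72 columns of normalized values per sample were not used.

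From the counts, edgeR 4.0.16 in R 4.3.3 applied TMM scaling, removed low counts with its filterByExpr rule for each pair of regions, and fitted the robust quasi-likelihood model to those regions with no block for rat. P-values were adjusted by Benjamini-Hochberg over all genes tested, and a gene was called under 0.05. Steps were tested on simulated data. With 2 LV libraries, the spread of that region is pooled with the other. Totals were 17334954 to 24252103 counts, and levels of a few CPM rest on few reads. Titles share an ending for the pieces of each rat, which was read as marking 1 rat. Residuals over 15248 genes of pieces from the same rat correlated at 0.210 to 0.245 for the LA and RA, at 0.117 to 0.166 for the sSAN and RA, and at -0.016 to 0.449 for the 2 nodes.

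Named genes are the 10 members, the 10 genes closest to Myh11 by correlation of log2 CPM (prior count 2), and the 4 most abundant of each pathway list, of which 2 are not reported here. The members and lists were chosen with earlier results of these data known. Alternatives were DESeq2 1.42.0, RLE scaling, no filter, all 5 regions in a fit, rat as a block, each age alone and each library left out. Added after the values were seen were a relaxed CArG box and the nearest genes of the other members.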

Additional observations from a re-analysis of the deposited data

Results flagged for a closer look

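Each of the 10 genes was examined in each region with 4 libraries, 40 groups in all, for a library whose gap to the nearest other exceeded Dixon's limit, which chance passes in about 1 of 20 groups. It was passed in 4. Myh11 in the sSAN of rat 1 was at 112 CPM, against 197 to 213 CPM in the other 3 sSAN libraries. Acta2 in the RA of rat 1 was at 68.7 CPM, against 16.2 to 20.5 CPM in the other RA libraries. Lmod1 in the sSAN of rat 2 was at 92.7 CPM, against 40.2 to 46.0 CPM. Mylk in the RA of rat 3 was at 54.7 CPM, against 40.5 to 42.6 CPM. Of 60 tests of whether a difference between atrial regions changed with age, 0 passed the threshold in edgeR, with the lowest adjusted p at 0.0764. Few of all genes passed it either. They were 304 of 14038 for the sSAN over the RA, 273 of 14112 for the sSAN over the LA and 3 of 13904 for the LA over the RA. For the iSAN over the RA, the iSAN over the LA and the sSAN over the iSAN there were 0.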

How the results depend on the processing

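Of 276 alternative counts of members called, 237 stayed within 1.5 times the count reported. With DESeq2, the iSAN had 2 lower than the RA and 2 lower than the LV. With no filter, it had 1 lower than the LA. With all 5 regions in the fit, the LA had 1 higher and 0 lower than the RA, the LV had 0 lower than the RA and 4 higher than the LA, the sSAN had 2 lower than the LA and the iSAN had 2 lower than the LV. From only the 59-day rats, the sSAN had 2 lower than the RA and 2 lower than the LA, and the iSAN had 3 higher than the RA and 1 higher and 0 lower than the LA. From only the 70-day rats, the LA had 3 higher than the RA, and the iSAN had 3 higher and 1 lower than the LA and 2 lower than the LV. The cause was not tested, and the single ages have fewer libraries. The share of all genes called was not counted for any alternative fit, with a library left out or otherwise. A change in the members called therefore cannot be told apart from a change over all genes.

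With each library left out in turn, members higher and lower were 7 to 8 and 1 for the sSAN over the RA, 5 to 8 and 0 to 2 for the iSAN over the RA, 4 to 5 and 1 for the LA over the RA, 6 to 8 and 1 for the LV over the RA, 7 to 8 and 1 to 2 for the sSAN over the LA, 6 to 8 and 0 to 2 for the iSAN over the LA, 6 to 8 and 0 for the LV over the LA, 0 to 6 and 0 to 2 for the sSAN over the LV, and 1 to 6 and 1 to 2 for the iSAN over the LV. The number lower for the iSAN over the RA was 2 without the iSAN of rat 1 and 1 without the RA of rat 2, and for the sSAN over the LA it was 2 without the sSAN of rat 3. For the iSAN below the LA it was 0 without the iSAN of rat 3 or the LA of rat 2, 3 or 4, and 1 without the iSAN of rat 4 or the LA of rat 1. Below the LV it was 2 for the iSAN without the iSAN of rat 1 or 2, and for the sSAN 1 without the sSAN of rat 1 or the LV of rat 3 and 0 without the LV of rat 4.

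With rat as a replicate block, 2 members were lower in the iSAN than in the RA, and 3 were higher and 2 lower in the iSAN than in the LV. A block fit keeps only rats that gave both regions, which are rats 3 and 4 in comparisons with the LV. Over 100 values of single members the block ended 8 calls and added 8, the fit of all 5 regions ended 11 and added 4, the 70-day rats alone ended 14 and added 6, and leaving out the filter ended 6. Over 60 values the 59-day rats alone ended 15 and added 2.

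Of the values below, only those of Smtn, Mylk and Cald1 from FPKM had been called. Cnn1 in the LA over the RA was 1.25 in the 70-day rats and -1.02 to 0.42 with a library left out. Lmod1 in the LV over the LA was -0.028 with the block, -0.018 in the 70-day rats and -0.12 to 0.35 with a library left out, where Myocd was -0.047 to 0.22. Between the nodes, Smtn was -0.23 in the 59-day rats, and in the 70-day rats Cnn1 was 0.16, Actg2 0.19 and Cald1 -0.026. With a library left out, the node difference was -0.25 to 0.15 for Cnn1, -0.11 to 0.14 for Smtn, -0.20 to 0.30 for Actg2 and -0.039 to 0.24 for Cald1, and the difference of Cald1 from the LV was -0.014 to 0.28 for the sSAN and -0.12 to 0.20 for the iSAN. From deposited FPKM, the log2 ratio of means was -0.015 (LV over RA) and -0.12 (LV over LA) for Smtn, -0.0095 for Mylk and -0.22 for Cald1 (LV over LA).

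Actg2 in the RA rests on 7 to 28 reads a library. Between the nodes 1 gene of all was called in the edgeR fit without a block, and how depth or the number of rats bears on that was not tested.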

Other observations

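The nearest genes of members other than Myh11 were listed after the values were seen, again with no test. Myocd was closest to Myh6 (0.98), a myosin heavy chain of heart muscle, and among its next genes were Atp2a2 (0.97), the calcium pump of heart muscle, and Ppp1r12b (0.96). Lmod1 had among its 10 nearest genes Cebpa (0.95), a regulator of fat cells, and Mylk had Pparg (0.96) and Fabp4 (0.95), 2 further fat cell genes. Smtn was closest to Apobec2 (0.96) and Ncs1 (0.96).

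The RA of rat 1, which was highest of the RA libraries in Acta2 and Cnn1, was also highest in other genes, named after their values were seen. Acta1, the skeletal actin, was at 264 CPM there and at 29.1 to 57.0 CPM in the other 3 RA libraries, and the stress gene Atf3 was at 18.7 CPM against 0.915 to 2.02 CPM. At or above 1 CPM, 73 genes in the RA of rat 1 exceeded 2 times the highest of the other RA libraries, and the same count was 55, 46 and 47 in the RA of rats 2, 3 and 4. Tagln and Myh11 in that library, at 8.13 and 32.6 CPM, lay within the range of the other 3.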
